A study of Mus musculus with 2 samples.

Results

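The genes described here encode the subunits of the oxidative phosphorylation complexes, chosen by symbol as protein-coding genes of complexes I to V from both the nuclear and the mitochondrial genome. The symbols were those beginning Ndufa, Ndufb, Ndufc, Ndufs or Ndufv with a number, Sdha to Sdhd, Uqcr, Cyc1, Cox4 to Cox8, Atp5, and mt-Nd, mt-Co, mt-Cytb or mt-Atp. The rule itself used no measured value, but earlier results of these data were known when it was chosen. It gave 98 of 42462 annotated gene rows, of which 21474 were protein coding. Nuclear genes made up 85 of the 98 and mitochondrial genes 13. Complex I held 44 of them, complex II 4, complex III 10, complex IV 21 and complex V 19. Ndufab1 and Usmg5, which also encode subunits, carry symbols outside these patterns and are given below with the assembly factors.

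PolyA RNA was sequenced from mouse G1E-ER4 cells held for 7 h in 10 nM 17beta-estradiol. This immortalized erythroid line has no working Gata1 of its own, and a Gata1-estrogen receptor fusion in it is made active by estradiol. The 2 libraries form 1 group, with no untreated sample, and both cite 1 biosample record, so their differences may be technical. No change with estradiol was measured, and an exact two-sided sign-flip test on 2 libraries cannot go below p = 0.5.

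Oxidative phosphorylation passes electrons from NADH through complex I, or from succinate through complex II, to ubiquinone, then through complex III and cytochrome c to complex IV, which reduces oxygen. Complexes I, III and IV pump protons across the inner mitochondrial membrane, and complex V, the ATP synthase, uses the gradient to make ATP. All of complex II is nuclear encoded, while the other complexes join subunits from both genomes. Erythroid precursors carry mitochondria for heme synthesis, and the mature mouse red cell has lost them.

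Sequences are shown where a value below depends on them. Stretches of the mouse genome hold copies of mitochondrial genes, and a read from a stretch without a difference cannot be placed. The first pairs below come from GENCODE M21 transcripts and are the only mismatches in the aligned bases of mt-Co1 with the chromosome 1 copy Gm29216 (483 bases aligned) and of mt-Nd3 with Gm28438 (345 bases aligned). Capitals mark the base that differs, counted from 1 at the 5′ end of the mitochondrial transcript and written with the mitochondrial base first. The substitutions are A1066T for mt-Co1 and T3C for mt-Nd3.
mt-Co1, bases 1063 to 1096: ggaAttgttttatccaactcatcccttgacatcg
Gm29216, same bases: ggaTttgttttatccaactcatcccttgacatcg
mt-Nd3, bases 1 to 33: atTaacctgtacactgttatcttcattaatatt
Gm28438, same bases: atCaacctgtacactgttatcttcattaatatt

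The next sequences, from RefSeq on GRCm38.p6, are the 250 bases before the start of Cox6a1, the most abundant of the 98 genes, and of Cox6b2, a testis-type gene that stood above its ubiquitous partner. They lie on the minus strand at chr5:115348959-115349208 and chr7:4753095-4753344. Capitals mark matches to the NRF1 core (GCGCATGC) and the ETS motif (CCGGAAG) on either strand. In Cox6a1, overlapping matches to the NRF1 core on both strands are 160 and 162 bases before the start, and the ETS match is 16 bases before it.
Cox6a1: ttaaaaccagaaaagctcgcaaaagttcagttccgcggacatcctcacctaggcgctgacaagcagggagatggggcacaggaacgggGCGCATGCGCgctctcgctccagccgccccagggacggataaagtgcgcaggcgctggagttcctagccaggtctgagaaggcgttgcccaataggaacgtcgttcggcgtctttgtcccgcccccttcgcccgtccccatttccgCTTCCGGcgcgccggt
Cox6b2: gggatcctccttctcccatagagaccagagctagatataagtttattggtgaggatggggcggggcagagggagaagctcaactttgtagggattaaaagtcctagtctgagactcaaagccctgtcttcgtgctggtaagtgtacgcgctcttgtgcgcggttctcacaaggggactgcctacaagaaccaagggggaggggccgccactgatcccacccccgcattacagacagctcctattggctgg

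Replicate 1 held 59610969 expected counts and replicate 2 held 44689405. Levels are given as TPM, a level per transcript length scaled to the same total in each library. Detection required a TPM of 1 or more in each library. Of 8 erythroid markers 7 were detected, with summed TPM of 20916 in replicate 1 and 12612 in replicate 2; Slc4a1, a late membrane protein, stood at 0.52 and 0.36. The striated muscle markers summed to 0.11 and 0.01, and the testis germ cell and brown fat markers (Prm1, Prm2, Tnp1, Ldhc, Pgk2, Ucp1 and Cidea) had 0 counts in both libraries. None of the myeloid, lymphoid and stromal markers was detected, and 1 of 4 megakaryocyte markers was (Itga2b). The myeloid markers summed to 0.03 and 0.67, with Mpo at 0 and 24 counts.

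Most of the respiratory chain was detected, and the medians of all complexes but complex IV lay above those of detected protein-coding genes in both libraries. Of the 98 genes, 89 were detected (90.8%), against 38.3% of all protein-coding genes. The median TPM of the 85 nuclear genes was 100.1 in replicate 1 and 63.5 in replicate 2 (81.8 ± 25.9, SD, n = 2). The 13 mitochondrial genes had medians of 308 and 148 (228 ± 113, SD, n = 2). Over all detected protein-coding genes the medians were 21.2 and 19.6, and 67 of the 98 genes lay above both of these. The 9 genes that were not detected were Ndufs4, Cox4i2, Cox6a2, Cox7b2, Cox8b, Cox8c, mt-Co2, mt-Co3 and Atp5s. By expected counts, the nuclear genes took 1.28% and 1.09% of all expected counts, and the mitochondrial genes 0.340% and 0.239%.

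**Figure D1:**
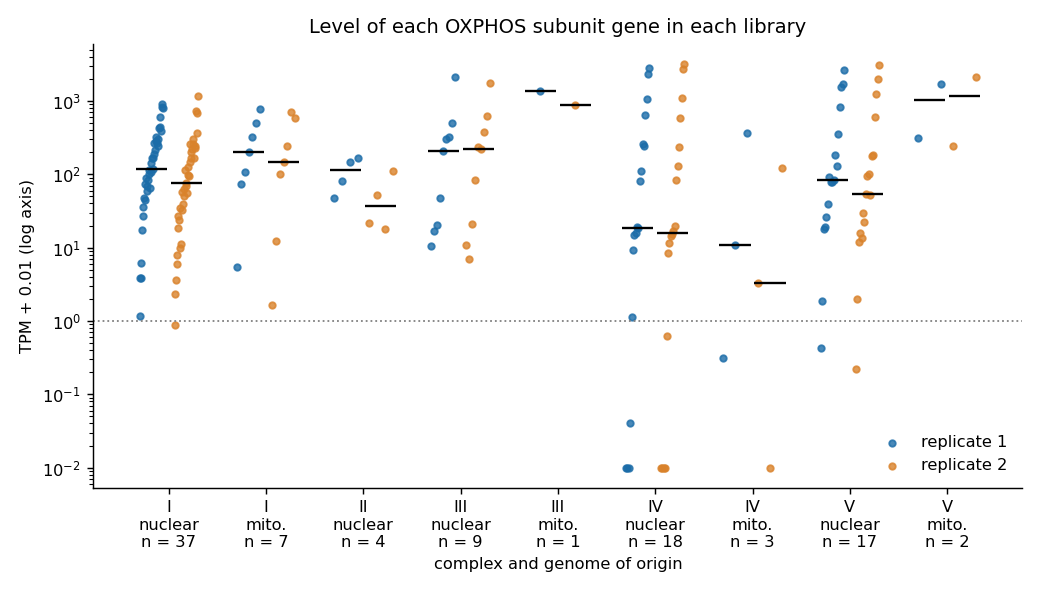
TPM plus 0.01 (log axis) of each of the 98 genes, by complex and genome of origin, with replicate 1 in blue and replicate 2 in orange. Black bars are medians over genes and the dotted line is at 1. Nuclear complex IV genes spread widest, from 0 to a mean of 3011.

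Levels within a complex differed widely, and 9 of the 98 genes had a mean TPM of at least 1000, with 2 of them in complex III, 3 in complex IV and 4 in complex V. In bulk RNA, fewer cells expressing a gene and less RNA per cell cannot be told apart.

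Complex I, the NADH dehydrogenase, had 43 of 44 genes detected and medians of 130 and 95.4 TPM. By mean, the accessory subunit gene Ndufa7 led the nuclear members with 799 TPM in replicate 1 and 1165 in replicate 2. The membrane-arm subunit gene Ndufb10 followed with 822 and 677, almost all of it on a transcript with a retained intron, so that its protein-coding transcripts stood at only 23.3 and 11.3. Next was mt-Nd1, which encodes a core membrane subunit, with 770 and 589. The order of these 3 genes was not the same in the libraries, and neighbours in the order of means overlapped. Ndufa12, at 913 and 370, stood above all 3 in replicate 1. The 7 nuclear core subunit genes had medians of 118 and 55.7, and the 30 nuclear accessory genes 129 and 84.5. Ndufs7, which carries the last iron-sulfur cluster before ubiquinone, was the highest of the core genes by mean at 302 and 259. Ndufv1 stood above it in replicate 1 (320.5 and 168), but the protein-coding transcripts of Ndufv1 stood at only 40.8 and 14.6. Those of Ndufs7 stood at 294 and 242. The lowest detected by mean was Ndufa5, an accessory subunit gene, at 3.90 and 2.30, and mt-Nd6 lay below it in replicate 2. Ndufs4, whose product is needed for a stable complex, had 81 and 42 counts, or 1.16 and 0.86 TPM.

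Complex II, succinate dehydrogenase, had all 4 genes detected, and each was lower in replicate 2. Sdhb, the iron-sulfur subunit gene, stood at 165 and 112 TPM, and Sdha, the flavoprotein gene, at 82.0 and 51.6. Most of the Sdha TPM was on the retained-intron transcript Sdha-202 (90.4% and 84.8%), and the protein-coding transcripts of Sdha stood at 7.75 and 6.81. By counts, which are not per length, the Sdha transcript with the longest coding sequence held 50.39% and 59.25%. The membrane anchor genes differed more, with Sdhc at 147 and 18.2 and Sdhd at 47.7 and 21.6.

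Complex III, the cytochrome bc1 complex, had all 10 genes detected. Uqcr11, a small peripheral subunit gene, was the highest at 2147 and 1769 TPM. The mitochondrial cytochrome b gene mt-Cytb stood at 1372 and 882, and the core protein gene Uqcrc1 at 498 and 628. Its core partner Uqcrc2 was the lowest of the complex by mean at 10.5 and 10.8, with Uqcrb below it in replicate 2 (16.8 and 7.06), so the transcripts of these paired core proteins differed widely in level in both libraries. Cyc1, the cytochrome c1 gene, stood at 324 and 383, and Uqcrfs1, the Rieske iron-sulfur protein gene, at 211 and 235.

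Complex IV, cytochrome c oxidase, held both the most abundant genes and most of the genes without counts, with 14 of 21 detected. Its medians were 18.25 and 15.2 TPM, below those of detected protein-coding genes, and 9 of the 21 lay above both of these. Cox6a1 stood at 2844 and 3177 TPM, Cox5b at 2333 and 2712, and Cox5a at 1069 and 1106. These nuclear subunits surround the catalytic core, and the spread of each gene between the libraries was small beside its level. The core itself is encoded by mt-Co1, mt-Co2 and mt-Co3, which were listed at 361 and 121.5, 10.9 and 0, and 0.30 and 3.28. The lowest detected gene was Cox7a2l, the supercomplex factor gene, at 9.24 and 8.42.

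Complex V, the ATP synthase, had 18 of 19 genes detected. Atp5b, the catalytic beta subunit gene, stood at 2615 and 3130 TPM, mt-Atp8 at 1730 and 2096, and Atp5d, the delta subunit gene, at 1716 and 1975. The delta subunit sits in the central stalk with the gamma subunit, whose gene Atp5c1 stood at 25.9 and 13.6, and the epsilon subunit, whose gene Atp5e was the lowest detected at 1.84 and 1.97. These stalk genes thus covered a wide range in both libraries. Atp5s, a coupling factor gene, had 28 and 10 counts and was under 1 TPM.

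The mitochondrial genome is transcribed as long precursors that are cut into shorter RNAs, so its genes can be read together. On the same strand mt-Atp8 and mt-Atp6 share 43 bases, and mt-Nd4l and mt-Nd4 share 7. The values of each such pair need not be levels of separate RNAs. Among complex I genes mt-Nd2 stood at 508 and 698 TPM, mt-Nd5 at 324 and 243, and mt-Nd4 at 204 and 148. Lower were mt-Nd4l at 109 and 100.1, mt-Nd3 at 74.0 and 12.5 and mt-Nd6, the gene read from the other strand, at 5.43 and 1.66. For complex V, mt-Atp6 stood at 308 and 246. The TPM of the short gene mt-Atp8 rests on effective lengths of only 50.3 and 60.3 bases in the authors' tables, by which its 4411 and 4466 counts were divided. Mitochondrial levels ran from mt-Co3 to mt-Atp8, and the order of neighbours such as mt-Nd1 and mt-Nd2 was reversed between the libraries.

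Summed over genes, mitochondrial TPM was below nuclear TPM in every complex with both. The ratio of mitochondrial to nuclear sums was 0.249 and 0.291 in complex I (0.270 ± 0.0298, SD, n = 2), and 0.384 and 0.263 in complex III (0.323 ± 0.0858). It was 0.261 and 0.303 in complex V (0.282 ± 0.0301), and 0.0486 and 0.0154 in complex IV (0.0320 ± 0.0235). The ratios of complexes I, III and V overlapped, and that of complex IV was lower in both libraries. These sums hold different numbers of genes, and by medians in place of sums the mean ratio was 1.85 in complex I, 5.23 in complex III, 0.395 in complex IV and 17.1 in complex V.

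Most counts on the core genes of complex IV were not on the mitochondrial rows but on nuclear copies. Copies here are annotated genes at another locus with at least 95% identity over at least 100 bases and 50% of either transcript. There were 48 of them, for 22 nuclear and 9 mitochondrial genes, and 16 had at least 10 counts over both libraries. A cluster of unprocessed pseudogenes at chromosome 1 matched the mitochondrial genes closely. On GRCm38, Gm28661 (chr1:24614885-24615565) was identical to mt-Co2 over 681 bases and held 18110 and 2971 counts, while mt-Co2 held 293 and 0.02. Gm28437 (chr1:24613189-24613971) was identical to mt-Co3 over 783 bases and held 16087 and 3568, against 9.42 and 74.1 for mt-Co3. The authors' posterior SD of the mt-Co3 count was 3847 and 871 counts, far above the count itself, so the split between the gene and its copy was not determined by these reads.

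The same held in part for other mitochondrial genes. Copies took 89.4% and 89.3% of the pooled counts of mt-Nd4l, 78.0% and 67.6% of those of mt-Atp6, 25.4% and 33.8% of those of mt-Co1, and 0% and 40.3% of those of mt-Nd3. With the counts of copies added to their genes, the mitochondrial share of all counts was 0.472% and 0.293%. For the ratios, the TPM of each copy, scaled by its own length, was added in place of its counts. Some copies are shorter than their genes, such as Gm29216 with 492 bases against 1545 for mt-Co1. The complex IV ratio became 0.268 and 0.0843 in this way, still the lowest of the 4 in both libraries. No copy with counts was found for mt-Nd1, mt-Nd4, mt-Nd5, mt-Nd6, mt-Cytb or mt-Atp8.

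**Figure D2:**
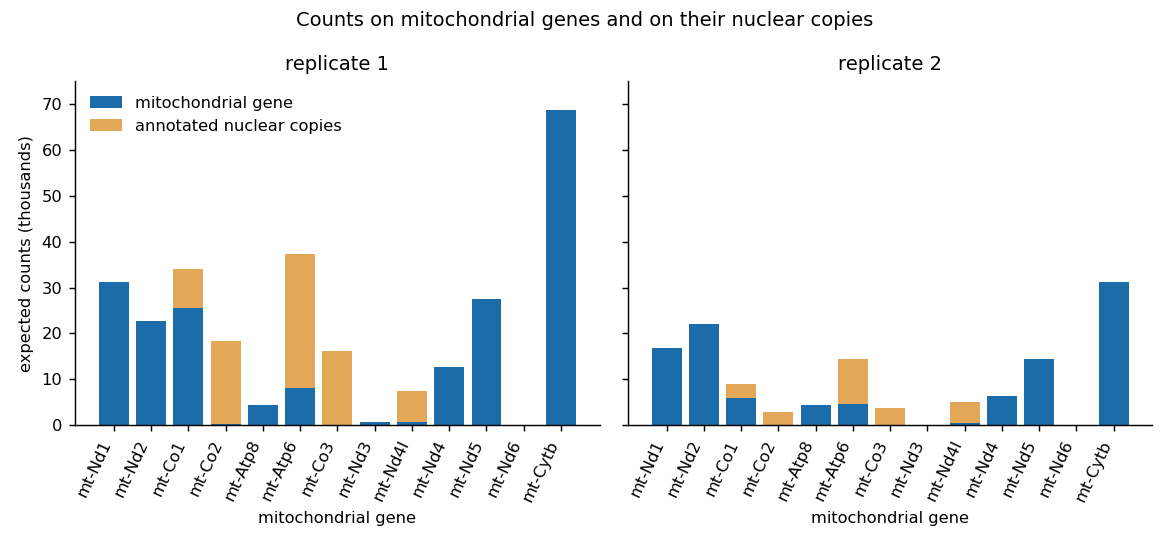
Expected counts (in units of 1000) on each of the 13 mitochondrial genes in blue, in genome order, with the counts on annotated nuclear copies stacked in yellow, for replicate 1 and replicate 2. For mt-Co2 and mt-Co3 the copies hold 97.97% or more of the counts in both libraries.

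Among nuclear genes, Ndufb4, a complex I accessory subunit gene, was the main case. Its processed pseudogene Ndufb4c (chr15:73809507-73809896) was identical over 390 bases and held 23512 and 25985 counts, or 1981 and 2992 TPM. Ndufb4 itself held 2651 and 3364 counts, or 64.2 and 115 TPM, with a posterior SD of 22.0 and 25.4 counts. Beside its count, this SD was far smaller than that of mt-Co3. The copy was identical over 390 of the 971 bases of the Ndufb4 transcript, and whether the split between them is right was not tested. Copies took 36.5% and 42.3% of the pooled counts of Cox7a2l, and 25.4% and 18.8% of those of Atp5g2. For the other nuclear genes copies took under 10% in both libraries.

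Several subunits of complex IV exist as a ubiquitous and a tissue-restricted form, and the restricted forms of muscle, lung and testis were mostly at or near 0. Cox8b, the muscle form, and Cox8c, the testis form, had 0 counts in both libraries against 12839 and 8234 counts for Cox8a. Taking 3 counts per library as the limit, Cox8a was at least 2267-fold and 1491-fold higher than Cox8b in TPM, and at least 3521-fold and 2272-fold higher than Cox8c. Cox7b2, the testis form of Cox7b, also had 0 counts, and Cox7b was at least 119-fold and 79.3-fold higher. Cox4i2, the lung form, had 1 and 0 counts against 7616 and 2770 for Cox4i1, so Cox4i1 was at least 902-fold higher in replicate 2. Cox6a2, the heart and muscle form, had 29 and 11 counts, or 1.14 and 0.61 TPM, against 2844 and 3177 for Cox6a1. Limits of this kind cover counting error only.

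A few restricted or alternative forms stood at or above their partners. Cox6b2, the testis form, stood at 240 and 235 TPM, and the ubiquitous Cox6b1 at 111 and 83.3. Cox6b2 was thus 2.17-fold and 2.82-fold higher, and the values of the genes did not overlap. Part of this came from a transcript with a retained intron, Cox6b2-205, which held 50.03% and 44.1% of the TPM of the gene. By protein-coding transcripts alone, a measure chosen after seeing the data, Cox6b2 stood at 119.7 and 131. The ratio of Cox6b1 to Cox6b2 was then 0.925 and 0.635 in place of 0.460 and 0.355. Cox6b2 transcripts with the longest coding sequence held only 6.95% and 7.28% of the gene's TPM, and 4.29% and 4.54% of its counts. The higher gene level of Cox6b2 was thus mostly not on such transcripts. Cox6b1 had only 1 transcript, which held 100% of its TPM. The testis germ cell markers had 0 counts in both libraries.

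Ndufa4l2, the hypoxia-inducible relative of Ndufa4, stood at 395 and 734 TPM, and Ndufa4 at 17.3 and 7.89. Ndufa4l2 was 22.8-fold and 93.1-fold higher, so both libraries gave the same order with a wide spread in size. The Ndufa4 protein is now placed with complex IV, although its symbol puts it in complex I. Of the 1095 exon bases of Ndufa4l2 (chr10:127514967-127517154), 32 overlap Shmt2 on the opposite strand, which held 29561 and 14787 counts. Counting is not stated to use strand, so reads in such overlaps cannot be told apart, and 23 of the 98 genes have an overlap of this kind. Cox7a1, the heart and muscle form, stood at 19.2 and 15.2 TPM, and Cox7a2 at 15.9 and 14.4, a difference within the spread between the libraries. By counts the order of this pair was turned, with 202 and 118 for Cox7a1 and 481 and 311 for Cox7a2, since counts are not per length. The striated muscle markers were at or under 9 counts each.

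**Figure D3:**
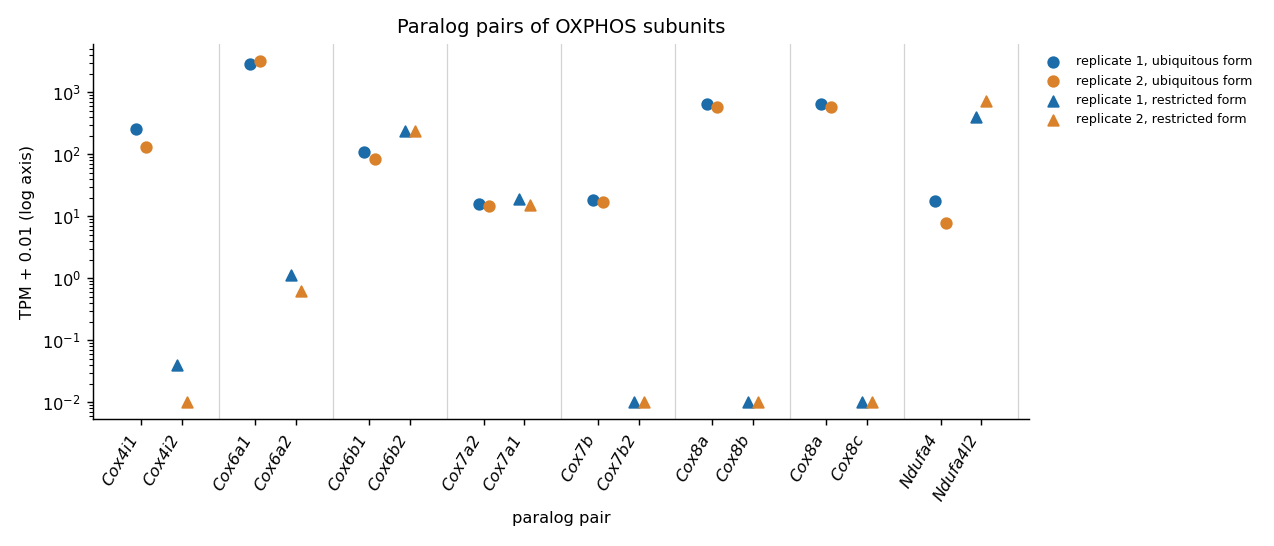
TPM plus 0.01 (log axis) of the ubiquitous form (circles) and the restricted or alternative form (triangles) of each paralog pair, replicate 1 in blue and replicate 2 in orange. Points at 0.01 have 0 counts. The triangles of Cox6b2 and Ndufa4l2 lie above both circles of their partners, and the points of Cox7a1 and Cox7a2 overlap.

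The c-ring of the ATP synthase is built from 1 mature protein encoded by 3 genes. Atp5g3 gave most of the summed TPM, 1546 and 1261, or 74.0% and 84.4%. Of the Atp5g3 level, 57.8% and 48.6% was on the processed transcript Atp5g3-205, and the protein-coding transcripts stood at 652 and 647. For Atp5g1 and Atp5g2, protein-coding transcripts held 100% of the TPM. Atp5g1 stood at 358 and 182, and Atp5g2 at 186 and 51.9. The order of the genes was the same in both libraries.

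Levels depended on which transcript received the reads. Of 91 genes with TPM in both libraries and a mean of at least 1, 55 had more than 1 annotated transcript, and in 48 of the 55 the same transcript led in both libraries. The leading transcript was not typed as protein coding in 13 of the 55 in replicate 1 and in 12 in replicate 2, with 11 in both. In 11 of the 55, protein-coding transcripts held under 50% of the TPM in both libraries. Atp5b-207, a processed transcript of 343 bases, held 93.6% and 94.8% of the TPM of Atp5b, and the coding transcript Atp5b-201 stood at 166 and 161. Atp5a1-204, typed as subject to nonsense-mediated decay, held 81.0% and 90.5% of Atp5a1, the alpha subunit gene. The called gene Ndufa12 had 95.8% and 94.0% on the retained-intron transcript Ndufa12-202. Over protein-coding transcripts alone the median of the nuclear genes was 71.0 and 38.6 TPM, with 77 of 85 detected.

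The libraries differed in these genes more often in one direction. An exact two-sided binomial test against TMM-scaled library sizes was run on all 11278 genes whose counts summed to 10 or more, with Benjamini-Hochberg adjustment over all of them. Calls needed an adjusted p below 0.05 together with a fold of 2 or more. Such a test sets 1 library against the other, says nothing of conditions, and allows for no error beyond counting noise. Of 94 genes tested here 17 were called (18.1%), against 11.3% of all genes tested. Higher in replicate 1 were 15 (15.96%), against 8.58% of all, and higher in replicate 2 were 2, Ndufa4l2 and mt-Co3 (2.13%), against 2.70%. With scaling by total counts the split was 26 to 1, and Ndufa4l2 (log2 ratio 0.81) was no longer called. The nuclear genes gave 12 calls of 81 (14.8%), near the share of all genes, and the mitochondrial genes 5 of 13. Under edgeR's exact test with the spread of the pair itself, a coefficient of variation of 0.288, 6 of the 94 were called (Ndufa2, Ndufb5, Sdhc, mt-Co2, mt-Co3 and mt-Nd3) and 0.922% of all genes.

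Log2 ratios are of replicate 2 over replicate 1, so negative values are lower in replicate 2. Their median was -0.32 over the nuclear genes and -0.31 over the mitochondrial genes, against -0.04 over all genes tested. Of the 94, 66 were lower in replicate 2 (70.2%), against 52.5% of all. By complex the medians were -0.56 in complex I, -0.75 in complex II, 0.05 in complex III, -0.02 in complex IV and -0.32 in complex V. With scaling by total counts the median of all genes moved to -0.23 and those of the nuclear and mitochondrial genes to -0.52 and -0.51. Scaling shifts the log2 ratios of all genes by nearly the same amount, so it could hardly change the gap between these groups and all genes. The erythroid markers had a median of -0.42. Whether the state of the culture or the library had a part in these differences was not tested.

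**Figure D4:**
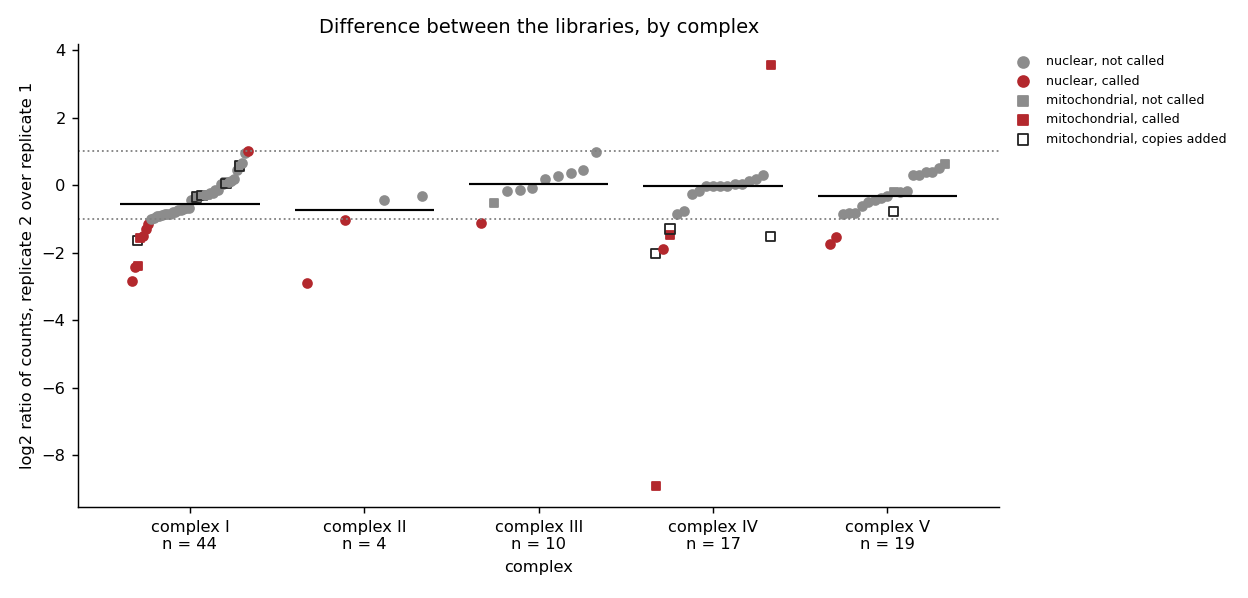
Log2 ratio of counts, replicate 2 over replicate 1, of the 94 tested genes by complex, with nuclear genes as circles and mitochondrial genes as squares. Red marks the 17 called genes, open squares the mitochondrial ratios with copies added, black bars the medians and dotted lines a fold of 2. Calls lie mostly below 0, and the open square of mt-Co3 is on the other side of 0 from its filled square.

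In complex I the called genes higher in replicate 1 were the accessory genes Ndufa2 (log2 ratio -2.84), Ndufb5 (-2.43), Ndufb11 (-1.30) and Ndufa12 (-1.14), the core gene Ndufv2 (-1.52), and mt-Nd3 (-2.39) and mt-Nd6 (-1.56). Ndufa2 had 1852 counts in replicate 1 and 169 in replicate 2, and Ndufb5 had 1733 and 210. Ndufa4l2, with 16101 and 21172 counts, lay just past the fold of 2 in the other direction (1.01). In complex II, Sdhc had 4922 and 427 counts (-2.91) and Sdhd 2736 and 871 (-1.04, adjusted p = 3.38e-84 by the exact binomial test). In complex III only Uqcrb, a ubiquinone-binding subunit gene, was called among the genes tested there, with 323 and 98 counts (-1.11).

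In complex IV, Cox7c, a small subunit gene, had 1452 and 256 counts (-1.89). The core genes mt-Co1, mt-Co2 and mt-Co3 had log2 ratios of -1.47, -8.92 and 3.56, which became -1.30, -2.02 and -1.53 with copies added. The difference of mt-Co3 was thus turned, and that of mt-Co2 much reduced, by how reads were split with the identical copies. With copies added, mt-Nd3 was at -1.65. In complex V, Atp5g2 had 4592 and 901 counts (-1.74) and Atp5h, the gene of the peripheral stalk subunit d, 1309 and 293 (-1.55). In Atp5h the processed transcript Atp5h-207 had 1112 counts in replicate 1 and 123 in replicate 2, and the coding transcript Atp5h-201 had 79.0 and 142.

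GC content of coding transcripts, averaged over a gene's coding transcripts, varied with level among the nuclear genes. Spearman's rho of GC content with log2(TPM + 1) was 0.394 and 0.402 over the 85 genes. It was 0.4065 and 0.418 over the 78 of them detected, and 0.313 and 0.345 over 8117 other detected protein-coding genes. The points share libraries and length correction, so these are descriptions. Median TPM was 17.1 and 7.48 for the 8 nuclear genes under 45% GC, 78.9 and 34.4 for the 21 from 45% to 50%, 98.1 and 69.2 for the 32 from 50% to 55%, and 286 and 195 for the 24 above. The mitochondrial genes had a median GC content of 37.1%, below 45% throughout, and medians above those of the lowest nuclear class. The log2 ratio between the libraries had a rho of 0.134 with GC content over 81 nuclear genes.

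**Figure D5:**
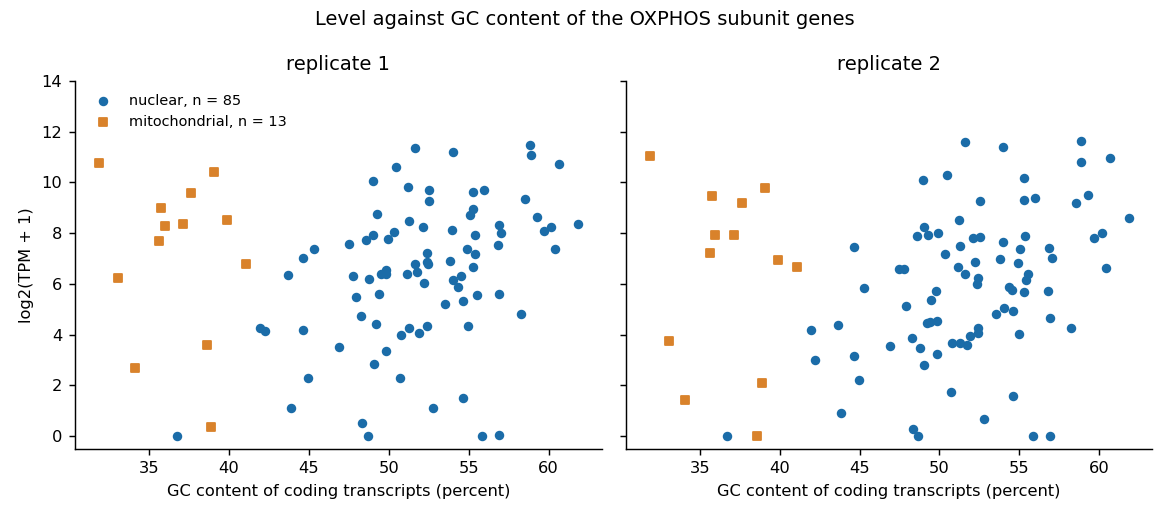
Log2(TPM + 1) against GC content (percent) of coding transcripts for the 85 nuclear genes (circles) and 13 mitochondrial genes (squares), replicate 1 on the left and replicate 2 on the right. Nuclear points of higher GC tend to lie higher in both libraries, and the mitochondrial points sit apart below 45%.

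Promoter sequences were matched for 68 of the 85 nuclear genes, as 300 bases from 250 before to 50 after the RefSeq start on GRCm38.p6, searched on both strands. The NRF1 core GCGCATGC, named for a factor known for driving nuclear genes of respiration, was in 10 of 68 (14.7%), against 2.81% of 27025 promoters of the same length. CCGGAAG, an ETS motif, was in 22.1% against 9.12%, and AAGATGG, a YY1 core, in 14.7% against 6.48%. ACGTG or GCGTG, the HIF core, was in 64.7% against 43.8%, and it can overlap CANNTG, the E-box, found in 70.6% against 72.1%. AGATAA or TGATAA, the GATA motif, was in 19.1% against 19.0%. The 27025 promoters were not matched to these genes for expression or GC content, and whether either accounts for the gaps was not tested. For some genes, such as Ndufa12, Atp5d and Ndufs7, the 250 bases before the RefSeq start lay wholly inside the GENCODE gene. A match describes the letters in this window and says nothing of binding.

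Genes that carry electrons to these complexes, build them or maintain mitochondrial RNA and DNA were read as 9 lists. Their calls are to be read against the 11.3% of all genes called, of which 968 of 1273 were higher in replicate 1. Cycs, the somatic cytochrome c gene, stood at 4.26 and 1.71 TPM and was called higher in replicate 1 (log2 ratio -1.18), and its testis form Cyct had 0 counts. Among 16 genes of complex I assembly, 15 were detected and 2 called, near the share of all genes, led by Ndufab1, the acyl carrier protein that is also a subunit, at 2243 and 2922, Ndufaf8 at 95.7 and 109 and Ndufaf2 at 51.6 and 30.5. For complex II 2 of 4 were detected and 0 of 4 called, with Sdhaf1 at 25.4 and 30.1, Sdhaf2 at 3.75 and 4.04 and Sdhaf4 at 0.94 and 1.42. For complex III 5 of 6 were detected and none of 5 tested was called, with Uqcc2 at 297 and 220, Uqcc3 at 44.3 and 40.3 and Ttc19 at 3.61 and 5.45.

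For complex IV 21 of 22 were detected and 3 called, again near that share, with Cox17, the copper chaperone, among them at 362 and 147 TPM, followed by Cox14 at 133 and 80.2 and Cmc2 at 79.7 and 63.0. For complex V all 6 were detected and 2 called, with the inhibitor Atpif1 at 299.7 and 71.6 (log2 ratio -1.83), Atpaf2 at 126 and 102.5 and Tmem70 at 74.3 and 93.6. Usmg5, a subunit of complex V, stood at 28.7 and 4.89 and was the other call (-2.36). These calls, like those in the lists of mitochondrial DNA and RNA, were all higher in replicate 1, which is also the more common direction over all genes.

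Of 14 genes of mitochondrial DNA transcription and upkeep 10 were detected and 2 called, close to the share of all genes, led by the polymerase gene Polg at 231 and 270 TPM and the RNA polymerase gene Polrmt at 39.9 and 39.6, with Mterf3 at 24.2 and 10.0. Of 15 genes of mitochondrial RNA processing and stability 14 were detected and 2 called, also close to it, led by Fastk at 284 and 269, Tbrg4 at 259 and 238 and Pnpt1 at 220 and 229. Of 9 biogenesis regulators 8 were detected and none of 8 tested was called, led by Yy1 at 151 and 258, Esrra at 47.9 and 66.8 and Pprc1 at 41.2 and 32.5. The median log2 ratio of the lists ran from -0.41 for complex IV assembly to 0.28 for complex II assembly, apart from the 1 tested electron carrier.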

How the data were processed

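PolyA RNA-seq of 2 libraries of 1 group was analysed. Per the labels, genome build mm10 was used, and transcriptome alignments with GENCODE M4 gave the values, per the notes deposited with them. Aligner and quantifier are not given in the sources used here. Expected counts and posterior mean counts, as deposited, are the authors' estimates of fragments per gene or transcript, not normalized, with a posterior SD beside them. The deposited TPM and FPKM values were scaled by the authors for effective length and library total. The percent of each gene's TPM in a transcript was also deposited by the authors, and shares printed here were computed again from transcript TPM.

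Names, types, positions, GC content and transcript sequences were read from GENCODE M21, on the same assembly (GRCm38). Of 43346 gene rows, 42462 matched. 1 further annotated gene that meets the rule was not analysed here. Members and lists were chosen with earlier results of these data known. Values in each library are given for the 3 most and the least abundant detected genes of each complex, all mitochondrial genes, the paralog pairs, the genes called between the libraries and the 3 most abundant genes of each other list. Other genes are named for their role or because their values were noted. Counts were rounded for tests, and log2 ratios carried a prior count of 0.5. Copies were found with blastn 2.17.0, and a copy close to several genes was assigned to the best match. TMM factors and the pair's dispersion came from edgeR 4.0.16 and DESeq2 1.42.0 size factors were an alternative, in R 4.3.3. The rest used Python 3.11.15 with scipy 1.17.1. The calling procedure was tested on simulated data with counting noise alone, the only error that the binomial test allows for. That simulation did not hold the spread of the pair, so it cannot show how the calls behave under it. SD is over 2 libraries. The depth of 59610969 and 44689405 counts makes counting error small for most detected genes. Some genes are not reported here by name.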

Additional observations from a re-analysis of the deposited data

How the results depend on the processing

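Of 239 alternatives, 207 kept the direction and the side of the threshold or moved by less than the spread. Many of these outcomes were fixed in advance, so 207 is no measure of how firm the results are. With 2 libraries, leaving out 1 always moves a mean by less than the SD. Ratios by FPKM equal those by TPM, and filters and fold thresholds leave a log2 ratio as it was. The count of genes called between the libraries (17) was 27 with total counts (26 higher in replicate 1, and Ndufa4l2 lost), 6 with edgeR's exact test and the spread of the pair (the 6 are named above), 40 at a fold of 1.5 and 75 with no fold threshold, where all genes gave 14.2%, 0.922%, 27.7% and 67.96%. It was 17 with DESeq2 size factors, without a count filter, with at least 50 counts and with copies added, and 13 without the mitochondrial genes that have counted copies, an alternative chosen after seeing the data. The log2 ratio of mt-Co3 became -1.53 with copies added. The median TPM of nuclear genes was 54.8 over coding transcripts and 43.1 as counts per kb of the longest coding transcript and library total, both chosen after seeing the data. With the TPM of copies added the mitochondrial median was 531 TPM, and with their counts added the mitochondrial share of counts was 0.382%. The mitochondrial to nuclear ratio with medians was 1.85 in complex I, 5.23 in III, 0.395 in IV and 17.1 in V. Over coding transcripts, also chosen after seeing the data, it was 0.381 in complex I and 0.630 in V. With the TPM of copies added this ratio was 0.176 in complex IV and 0.382 in V, and with posterior mean TPM 0.0607 in IV. By counts Cox7a2 over Cox7a1 became 2.51, since counts are not per length. Other causes were not tested. Leaving out a library gave 90 and 92 detected genes, nuclear medians of 63.5 and 100.1, mitochondrial medians of 148 and 308, nuclear shares of 1.09% and 1.28% and mitochondrial shares of 0.239% and 0.340%. No call between libraries can be made from 1 library. No paired analysis was possible because there is 1 group. Limits: n is 2, no untreated sample was analysed here, strand use is not stated, and for mt-Co2, mt-Co3, mt-Atp6 and mt-Nd4l the level rests on how reads were split with identical copies.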
